A study of Mus musculus with 18 samples.

Results

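Peaks of CTCF and of cohesin from every library analysed fell in the same merged region at 918 places in the thymocyte genome. These places lay more than 20 kb from any protein-coding gene. These regions were chosen by merging the peaks of 7 lists on chromosomes 1 to 19 wherever they overlapped by 1 bp or more, and by keeping the merged regions that held a peak of each list and cleared the distance. They were 918 of 65437 merged regions. A further 8923 regions were in every list but within 20 kb of a gene, which made 9841 shared regions in all. Presence in the lists and distance from genes were therefore set by the choice of regions and are given here as description.

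CTCF is a zinc finger protein that binds a long, conserved DNA motif. Cohesin is a ring-shaped complex, of which SMC1A is a core subunit, that extrudes loops of chromatin and is held at CTCF sites whose motif faces the moving ring. Sites held by both commonly mark loop anchors and domain borders, and those in gene deserts can anchor loops between distant enhancers and genes or border a domain. In the thymus such sites are known to shape the antigen receptor loci during recombination. SATB1 is a DNA-binding protein of thymocytes that takes part in the folding of their chromatin.

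The libraries came from sorted CD4 CD8 double-positive (DP) thymocytes of Satb1 KO and WT mice, all of them given tamoxifen, a drug used to switch on Cre and so delete a gene. CUT&RUN was used, in which an antibody guides a nuclease that cuts the DNA around the bound protein. The lists were 2 of SMC1A from KO cells, 2 of SMC1A from WT cells, 2 of CTCF from KO cells and 1 of CTCF from WT cells. The second WT CTCF library and the H3K27ac, IgG and input libraries, 11 of 18 samples, were not analysed here. The labels give each replicate number as a batch, 1 or 2, and do not say whether replicates came from separate mice, so p-values measure only the spread between these samples. Neither the age of the mice nor the Cre driver was given in the sources used here. A peak list measures no RNA, so it checks neither the genotype nor the identity of the sorted cells.

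On chromosomes 1 to 19 the SMC1A lists held 27459 and 20172 peaks in KO cells and 19466 and 20152 in WT cells. The CTCF lists held 54222 and 22351 peaks in KO cells and 38222 in WT cells, so the second KO CTCF list stood apart as the short one. Between 1.78% and 5.07% of a list's peaks fell in the 918 regions. The lists hold no read numbers, so sequencing depth is unknown. Fold enrichment below is the authors' value at a peak's summit, and it is used to rank or describe peaks within its own list.

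Sequence could be read at the few regions that coincided with a tabulated promoter. The middle CTCF summit, the median of the summits in the 3 CTCF lists, was used as the CTCF position. In 29 of the 918 regions (3.16%) it lay inside a promoter window of a long non-coding RNA (lncRNA). In 7 of those 29 regions (24.1%) such a window held the core of the CTCF motif, searched on both strands as the letters CCA, any 2 bases, AG, any 2 bases and GGC in a row. Among the other shared regions the core was held in 152 of the 3104 (4.90%) with the middle CTCF summit in a promoter window of any gene, protein-coding genes included. Counted over windows and not over regions, which can touch several windows, the share was 2.47% of all promoter windows of 300 bases on these chromosomes and 2.61% of the lncRNA windows. These 7 are shown because they are the sites in the 918 regions where a match to the core could be seen. Whether CTCF binds these letters was not tested. Each stretch is printed as the strand of transcription, 5′ to 3′, with up to 50 bases on either side of the match, and capitals mark the match (sequences from RefSeq, GRCm38.p6).
Gm26901: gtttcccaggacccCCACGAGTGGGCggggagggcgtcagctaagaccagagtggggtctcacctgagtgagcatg
Gm34325: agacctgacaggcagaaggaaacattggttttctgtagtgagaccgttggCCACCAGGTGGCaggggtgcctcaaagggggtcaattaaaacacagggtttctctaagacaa
Gm20559: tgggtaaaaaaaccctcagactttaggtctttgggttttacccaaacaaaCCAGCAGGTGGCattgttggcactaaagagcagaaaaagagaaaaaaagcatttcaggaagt
Gm30771: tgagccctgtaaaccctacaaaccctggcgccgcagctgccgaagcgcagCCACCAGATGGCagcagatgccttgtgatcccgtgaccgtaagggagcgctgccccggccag
Gm52265: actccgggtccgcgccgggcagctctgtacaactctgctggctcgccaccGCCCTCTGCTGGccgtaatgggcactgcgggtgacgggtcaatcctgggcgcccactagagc
Gm33756: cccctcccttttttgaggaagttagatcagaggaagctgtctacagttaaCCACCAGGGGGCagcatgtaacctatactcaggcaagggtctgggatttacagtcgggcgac
E330013P04Rik: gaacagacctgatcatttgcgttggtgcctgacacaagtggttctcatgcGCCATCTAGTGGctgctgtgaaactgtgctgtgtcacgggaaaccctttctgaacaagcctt

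In the Gm52265 and E330013P04Rik windows the match was on the strand opposite to the one printed, and in the other 5 it was on the printed strand. The printed stretches are parts of the windows of 300 bases. They lie at chr1:7398271-7398346 (minus strand, Gm26901), chr2:122569565-122569676 (plus, Gm34325), chr6:3346148-3346259 (minus, Gm20559), chr7:38061173-38061284 (plus, Gm30771), chr16:5306724-5306835 (minus, Gm52265), chr19:59389344-59389455 (plus, Gm33756) and chr19:60144485-60144596 (plus, E330013P04Rik). The middle CTCF summit lay within 50 bp of the match in 3 of the 7 and at most 176.5 bp from it, in Gm26901. The Gm26901 region, 222822 bp from Pcmtd1, held SMC1A folds of 28.1 and 21.7 in KO cells and 23.8 and 29.0 in WT cells. Its CTCF folds were 68.0 and 6.01 in KO cells and 34.3 in WT cells. The Gm33756 region, 42724 bp from Pdzd8, held SMC1A folds of 15.8 and 11.9 in KO cells and 10.7 and 11.2 in WT cells. A match is a description of the letters only, and the share depends on the choice of window.

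Shared occupancy was less common far from genes than near them. Of the 9346 merged regions beyond 20 kb, 9.82% (95% Wilson interval 9.24 to 10.4) were in every list, against 15.9% (15.6 to 16.2) of the 56091 regions within 20 kb. These intervals cover counting error only. Of the far regions in all 3 CTCF lists, 45.8% were also in all 4 SMC1A lists, against 59.9% of the near ones. In the other direction, 77.3% of the far regions in all 4 SMC1A lists were in all 3 CTCF lists, against 83.5% near genes. A single list accounted for 4470 far regions (47.8%). Another 509 far regions missed membership by 1 list. The missing list was the second KO CTCF list for 160 of them, and WT SMC1A list 1, WT SMC1A list 2 and KO SMC1A list 2 for 124, 95 and 89, while KO SMC1A list 1, KO CTCF list 1 and the WT CTCF list were missing at 11, 10 and 20.

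The 918 regions were thinly spread. Their median distance to a protein-coding gene was 42317 bp, with quartiles of 29071.5 and 86991.5 bp. Beyond 100 kb there were 197 (21.5%), beyond 500 kb 22, and beyond 1000 kb 7. Sequence more than 20 kb from a gene made up 44.3% of the territory between the first and last gene of each chromosome, and it held 0.846 such regions per Mb (95% Poisson interval 0.792 to 0.903), against 6.60 shared regions per Mb within 20 kb of genes. Merged regions in any number of lists were also sparser there, with 8.64 per Mb beyond 20 kb against 41.5 per Mb within it. By chromosome the density ranged between 0.534 per Mb on chromosome 8 and 1.30 per Mb on chromosome 17. The median gap to the nearest shared region of any kind was 49827.5 bp, against 24295 bp for the shared regions near genes. Some still came in groups: 152 (16.6%) had another of the 918 within 10 kb.

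"Far from genes" held for protein-coding genes only. The regions overlapped a gene body without protein-coding annotation in 293 cases (31.9%, interval 29.0 to 35.0), against 15.9% of the shared regions near genes and 28.1% of the far regions that were in fewer than 7 lists. An lncRNA body was overlapped by 256 (27.9%, interval 25.1 to 30.9), against 13.8% of the shared regions near genes and 21.4% of the far regions in fewer lists. The end of an lncRNA lay within 1 kb of 143 regions (15.6%, interval 13.4 to 18.1), against 11.9% of the shared regions near genes (11.2 to 12.6) and 7.90% of the far regions in fewer lists (7.35 to 8.50). With every gene of the RefSeq table in place of the protein-coding ones, 249 regions remained beyond 20 kb. The table has no exons, so exonic or intronic position is not stated.

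Antigen receptor loci were part of this exception, because their gene segments are not annotated as protein-coding. In all, 14 regions lay within 50 kb of a segment, and 8 overlapped one (0.871%), against 1.80% of the far regions in fewer lists and 0.0336% of the shared regions near genes. The T cell receptor beta locus, rearranged before the DP stage, held 5 of the 14. At its Trbv12-1 segment (chr6:41112474-41113835) the SMC1A folds were 14.6 and 9.15 in KO cells and 13.2 and 10.5 in WT cells. Beside Trbv31, the segment at the far end of the locus, a region of 3320 bp held SMC1A folds of 20.6 and 21.0 in KO cells and 23.2 and 18.3 in WT cells, so the groups overlapped. The T cell receptor alpha locus, which rearranges in DP cells, held 4, at Trav6-6, Trav11, Trav3-4 and Trav17. At Trav17 (chr14:53803653-53806773) the SMC1A folds were 25.2 and 18.2 in KO cells and 8.09 and 10.6 in WT cells, without overlap. The KO minus WT difference in rank score there, explained further on, had a limma adjusted p of 0.190. Both KO scores lay above both WT scores at 20.5% of all shared regions. At Trav3-4 the SMC1A folds were 4.97 and 7.95 in KO cells and 6.27 and 5.46 in WT cells, with overlap. The gamma locus held 1 at Trgv7, and the immunoglobulin kappa locus held 2, near Igkv13-57-2 and Igkj1. The last 2 lay beyond Igha, the constant gene at the 3′ end of the heavy chain locus, where a cluster of CTCF sites is known. The wider of them (chr12:113216986-113223221, 6236 bp, nearest gene Tmem121) held SMC1A folds of 35.7 and 32.0 in KO cells and 32.1 and 34.1 in WT cells, and CTCF folds of 84.8 and 19.2 in KO cells and 53.2 in WT cells.

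The peaks of the 918 regions were narrower than those of the shared regions near genes, while their lower strength did not pass the adjusted test. Strength was taken as the percentile of the fold among all peaks of the same list. In the SMC1A lists the regions' median percentile against that of the shared regions near genes was 77.0 against 80.2 and 70.2 against 72.5 in KO cells, and 65.0 against 71.8 and 69.3 against 72.8 in WT cells. In the CTCF lists it was 87.5 against 89.9 and 71.8 against 69.4 in KO cells, and 79.8 against 85.3 in WT cells. The difference was -3.06 ± 2.89 percentile points (SD, n = 7 lists) and was negative in 6 of 7 lists, the exception being the second KO CTCF list. By an exact two-sided sign-flip permutation test over lists p was 0.0469, and 0.0703 after Benjamini-Hochberg adjustment over the 3 measures tested, so the difference did not pass the threshold of 0.05. Without the second KO CTCF list it was -3.96. Lists share the regions, so the test measures agreement between libraries and not between independent sites.

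Width gave a difference that passed. The median peak width in the SMC1A lists was 526 and 441 bp in KO cells and 435 and 439.5 bp in WT cells at the 918 regions, against 590 and 471 bp and 491 and 497 bp in the same lists at the shared regions near genes. In the CTCF lists it was 914.5 and 528 bp in KO cells and 674.5 bp in WT cells, against 1102, 529 and 821 bp. The ratio was below 1 in 7 of 7 lists. Its mean was -0.17 ± 0.10 on the log2 scale (SD, n = 7), a ratio of 0.891, with an exact sign-flip permutation p of 0.0156, the smallest that 7 lists allow, and an adjusted p of 0.0469.

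**Figure D1:**
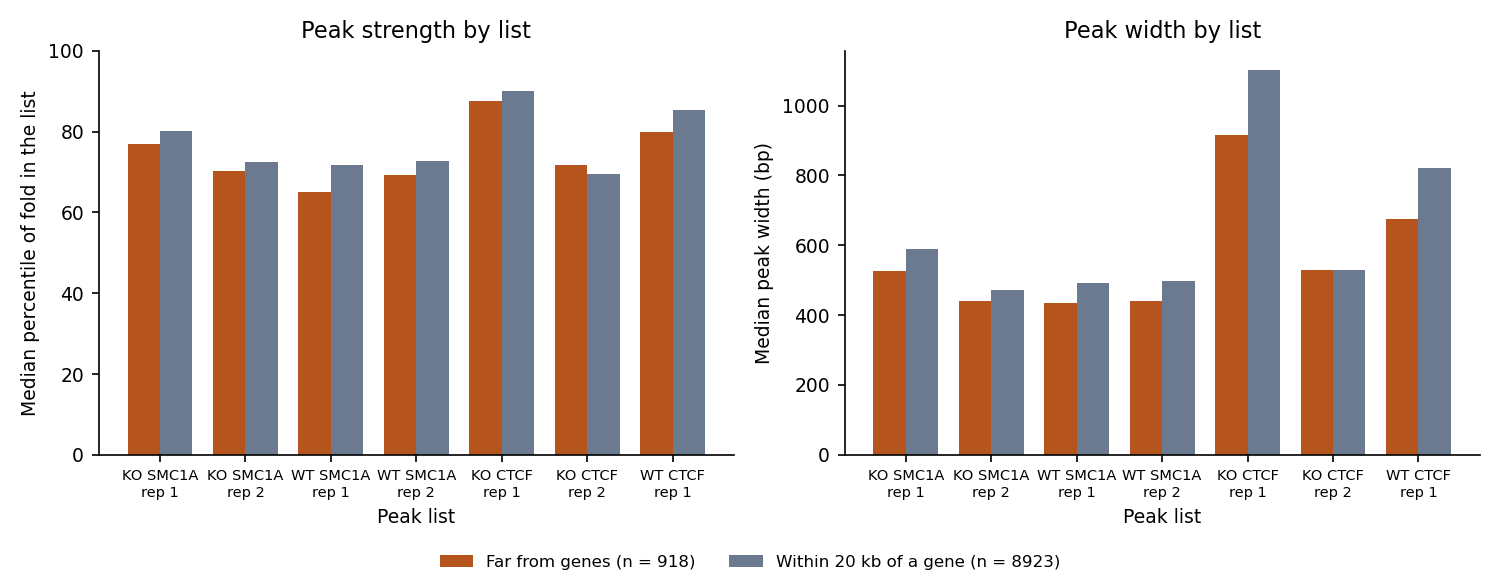
Bars give, for each of the 7 peak lists (horizontal axis), the median percentile of fold enrichment within the list (left) and the median peak width in bp (right) of the 918 regions far from genes and of the 8923 shared regions within 20 kb of a gene. The bars of the far regions are the lower ones except for percentile in the second KO CTCF list, where they stand at 71.8 against 69.4.

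Strength varied widely among the regions. Their lowest percentile over the 7 lists had a median of 38.4 and quartiles of 18.1 and 61.5, against a median of 44.5 for the shared regions near genes. In 26 regions (2.83%) every list placed the peak at or above the percentile 90, against 6.70% of the shared regions near genes. Between SMC1A lists the Spearman correlation of fold over the 918 regions ranged between 0.581 and 0.707, between CTCF lists it ranged between 0.509 and 0.630, and between an SMC1A and a CTCF list between 0.330 and 0.520. Over the 8923 regions near genes the same ranges were 0.689 to 0.767, 0.597 to 0.765 and 0.409 to 0.674. These are descriptions across regions, and the lists share the peak caller and the cells.

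The strongest of all 918, by the lowest percentile, lay 1140345 bp from Galc, which encodes a lysosomal galactosidase (chr12:97061291-97061942). Its SMC1A folds were 83.4 and 109 in KO cells and 121 and 115 in WT cells, and its CTCF folds were 62.8 and 198 in KO cells and 46.5 in WT cells. The WT lists were the higher ones for SMC1A in fold. The KO minus WT difference in rank score, explained further on, was 0.04 ± 0.14 (SE), with a limma adjusted p of 0.942. The next were the wide region beyond Igha and a region of 1221 bp, 52312 bp from Wnt7b, which encodes a Wnt ligand. The Wnt7b region held SMC1A folds of 52.7 and 42.0 in KO cells and 48.5 and 42.9 in WT cells, which overlap. The other 5 of the first 8 lay nearest to Edn1, Tarbp1, Lrrc74a, Igsf3 and Gng4, between 20906 and 128590 bp away, with lowest percentiles of 95.1 to 98.0.

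Cohesin and CTCF summits lay close together, which the merging of overlapping peaks favours, and no expected distance was computed. The median distance between an SMC1A summit and the middle CTCF summit was 41 and 44 bp in KO cells and 46 and 53 bp in WT cells. Summits of different SMC1A lists lay a median of 45 to 62 bp apart in the same regions. That is a distance between single lists, and so is not measured like the distance to the middle CTCF summit. Between a single SMC1A list and a single CTCF list the median was 38 to 78.5 bp. Within 200 bp of the middle CTCF summit lay between 93.7% and 94.9% of the SMC1A summits, according to the list. The SMC1A to CTCF distances were 1.5 bp shorter on average than in the shared regions near genes (-1.5 ± 2.89 bp, SD, n = 4 lists), with an exact sign-flip permutation p of 0.5, where 4 lists allow no p below 0.125. In 316 regions all 4 SMC1A summits were more than 20 bp from the CTCF summit, and in 137 of these (43.4%) they lay on the same side of it, against 44.5% near genes. Where the side was shared the median displacement was 101 bp, with 67 regions displaced towards higher and 70 towards lower coordinates.

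Very narrow regions were more frequent far from genes. Merged regions of 450 bp or less, a limit chosen after the values were seen, numbered 69 of the 918 (7.52%, interval 5.98 to 9.41), against 132 of 8923 (1.48%, 1.25 to 1.75) near genes. Their share was 4.57% at 20 to 50 kb from a gene, 4.08% at 50 to 100 kb, 9.40% at 100 to 200 kb, 24.1% at 200 to 500 kb and 54.5% (12 of 22 regions, interval 34.7 to 73.1) beyond 500 kb. In the SMC1A lists the narrow ones had median folds of 12.9 and 12.4 in KO cells and 14.4 and 16.7 in WT cells, against 10.5 and 8.61 in KO cells and 8.22 and 8.63 in WT cells for the wider ones. In the CTCF lists their median folds were 9.23 and 7.57 in KO cells and 9.81 in WT cells, against 18.9 and 5.20 in KO cells and 10.7 in WT cells for the wider ones. Whether reads map uniquely to the narrow regions, or to any other of the 918, was not tested.

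**Figure D2:**
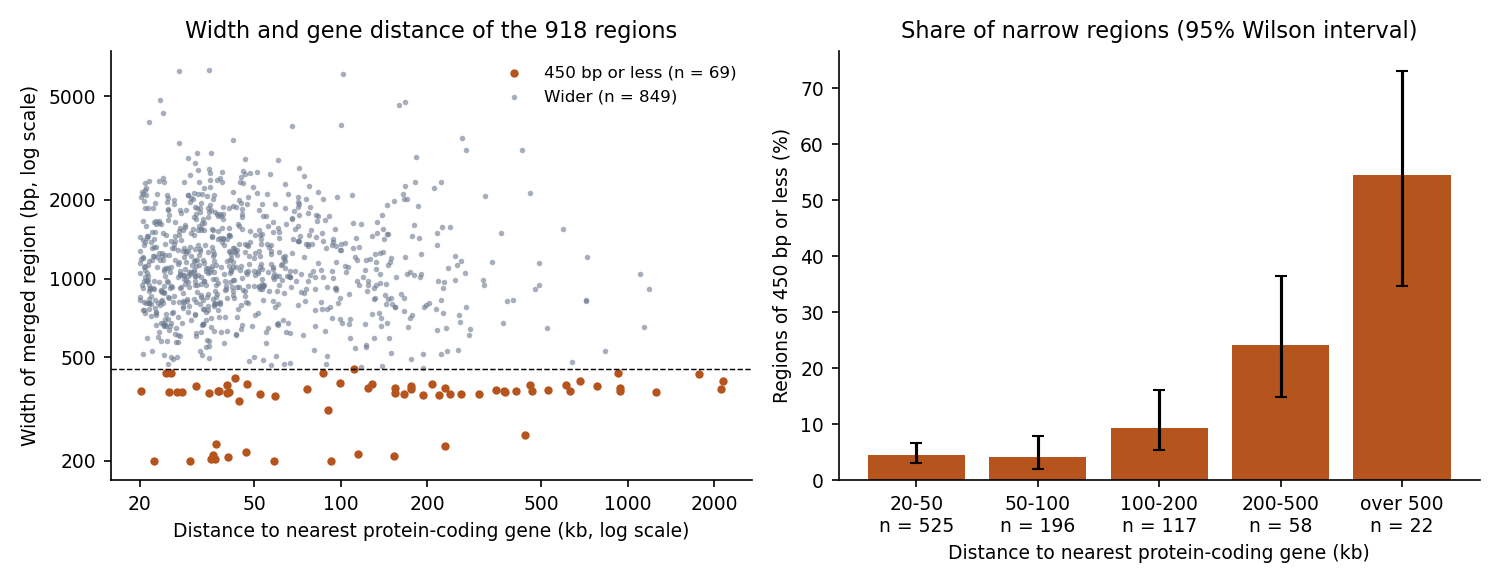
Left, width of each merged region (bp) against its distance to the nearest protein-coding gene (kb), both on log scales, with a dashed line at 450 bp; right, the percentage of regions of 450 bp or less in 5 classes of distance, with 95% Wilson intervals. The narrow regions form a band of their own below the line, and their share reaches 54.5% beyond 500 kb.

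The 6 regions farthest from a gene included 4 narrow ones. The farthest lay 2137461 bp from Cntnap5b, a gene of the neurexin-related contactin-associated family, and was 405 bp wide (chr1:102628060-102628464). Its SMC1A folds were 7.44 and 7.28 in KO cells and 12.1 and 9.71 in WT cells. The next lay 2102278 bp from Pcdh9, a protocadherin gene, with SMC1A folds of 11.5 and 9.19 in KO cells and 8.26 and 11.3 in WT cells, which overlap. After these came regions 1765696 bp from G6pd2 and 1249162 bp from Rpia, the region near Rpia being inside the kappa locus. Gata3 and Galc followed, with regions of 910 and 652 bp.

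SMC1A and CTCF strength could be set side by side through ranks. Within each list the 9841 shared regions were ranked by fold and the ranks were turned into normal scores, so that 0 is the middle region of that list and each list has the same number of ranks. The mean SMC1A score minus the mean CTCF score had a median of 0.00 over the 918 regions and ranged between -2.23 and 2.73. Among the narrow regions its median was 1.34, and 39 of 69 (56.5%) had a difference above 1, against 59 of 849 (6.95%) of the wider ones. Below -1 there were 15 narrow regions (21.7%) and 67 wider ones (7.89%). The 4 regions with the highest difference were all narrow, with widths of 360 to 375 bp. The first lay 240230 bp from Epha7, an ephrin receptor gene, with SMC1A folds of 10.9 and 14.4 in KO cells and 16.5 and 16.8 in WT cells beside CTCF folds of 2.68 and 4.51 in KO cells and 3.85 in WT cells. The other 3 were nearest to Slc35b3, Intu and Ythdc2. At the opposite end stood regions near Eif1, Smad2, Slc38a4 and Dusp10, all 1040 bp or wider. The one near Dusp10, a MAP kinase phosphatase gene, held SMC1A folds of 9.61 and 5.05 in KO cells and 5.21 and 7.50 in WT cells, beside CTCF folds of 36.5 and 11.4 in KO cells and 17.8 in WT cells.

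**Figure D3:**
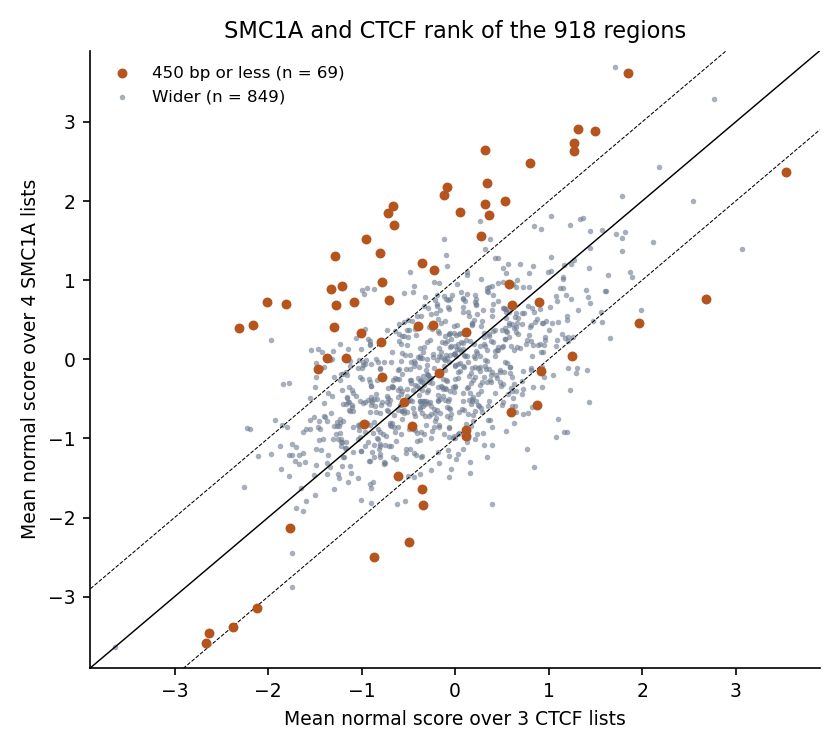
Each point is 1 of the 918 regions, placed by its mean normal score over the 3 CTCF lists (horizontal) and over the 4 SMC1A lists (vertical); the solid line marks equal scores and the dashed lines a difference of 1. Narrow regions lie mostly outside the dashed lines, 39 of 69 above the upper one, while most wider regions lie between them.

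The study's comparison of genotypes asks whether loss of SATB1 changes cohesin binding. Over the 918 regions the median percentile in the SMC1A lists was 73.6 ± 4.78 in KO cells and 67.2 ± 3.03 in WT cells (SD, n = 2 each), the median width was 483.5 ± 60.1 bp in KO cells and 437.2 ± 3.18 bp in WT cells, and the median summit distance was 42.5 ± 2.12 bp in KO cells and 49.5 ± 4.95 bp in WT cells. Each gave an exact two-sided permutation p of 0.333, the smallest that 2 against 2 allows. The shared regions near genes differed in the same directions. Their means were 76.4 in KO cells and 72.3 in WT cells for percentile, and 530.5 and 494 bp for width. For summit distance they were 45.5 and 49.5 bp. The lists differ in length, so the percentiles and widths cannot show a change by themselves. The KO minus WT difference in percentile was 12.0 points in batch 1 and 0.923 points in batch 2, where the KO lists held 27459 and 20172 peaks. At the shared regions near genes it was 8.45 points in batch 1 and -0.280 points in batch 2. The part of list length in these differences was not tested. Ranked among the 9841 shared regions, where every list counts alike, the regions' median percentile was 44.4 and 46.9 in KO cells and 41.7 and 45.3 in WT cells, which overlap. Within batches KO was higher by 2.68 points in batch 1 and 1.61 points in batch 2, and the exact permutation p was 0.667. In the CTCF lists, which were not tested with 1 WT list, this median percentile was 42.0 and 52.7 in KO cells and 38.6 in WT cells. In sorted cells a change in the share of cells with a bound site and a change within each cell cannot be told apart.

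Region by region, 1 of the 918 passed limma's test of the SMC1A score at an adjusted p of 0.05, with 0.0102% of all 9841 shared regions called higher and 0.0% called lower in KO cells. At an unadjusted p of 0.05, 85 of the 918 (9.26%) were higher and 43 (4.68%) lower in KO cells, where the shares over all shared regions were 5.36% and 4.83%. Both KO scores lay above both WT scores at 229 regions (24.9%), against 20.5% of all shared regions, and below them at 149 (16.2%), against 21.0%. The median score difference was 0.07 over the 918 regions and -0.01 over the shared regions near genes. Among the narrow regions it was -0.31 and among the wider ones 0.11. With batch as a replicate block 11 of the 918 were called, 9 higher (0.396% of all shared regions were called higher) and 2 lower (0.142%). Deviations of batch-matched SMC1A libraries correlated at 0.0276, so the scores give little ground for the block, and calls with it need caution.

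The called region was the narrow one 128590 bp from Edn1, the endothelin 1 gene (chr13:42436580-42436974, 395 bp). Its SMC1A folds were 68.8 and 57.1 in KO cells and 28.8 and 29.9 in WT cells, and its CTCF folds were 297 and 54.2 in KO cells and 154 in WT cells. The score was 2.92 in both KO lists, against 1.76 and 1.86 in the WT lists, a difference of 1.11 ± 0.16 (SE; 95% interval 0.76 to 1.45) and a limma adjusted p of 0.0322. Without WT SMC1A replicate 1 the adjusted p was 0.0900, and with peaks of a −log10 q of 5 or more it was 0.0580. When regions of 450 bp or less were left out, which removes this one, none of 849 was called by limma (0.0% of all 9640), 106 (12.5%) had an unadjusted p under 0.05 against 9.97% of all, and the lowest adjusted p over all shared regions was 0.0854.

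The other 3 of the 4 regions with the largest positive limma statistics were nearest to Amph, Tnfaip3 and Kif2a, and none passed in the fit of the scores without the block. That near Amph, which encodes the endocytic protein amphiphysin, overlapped the Trgv7 segment of the T cell receptor gamma locus (chr13:19177495-19178676). Its SMC1A folds were 24.0 and 21.7 in KO cells and 7.47 and 7.90 in WT cells, without overlap, for a score difference of 1.88 ± 0.33 (SE), a limma adjusted p of 0.0675 and of 0.00168 with the block. It also passed limma's test when ranked by −log10 q (0.0386), on log2 fold (0.0105) and without requiring CTCF (0.0492). It missed the threshold with peaks of a −log10 q of 5 or more (0.1235) and without regions of 450 bp or less (0.0887). At this region the score difference without 1 replicate was 1.74 to 2.02. Its CTCF folds were 36.0 and 8.03 in KO cells and 12.6 in WT cells. The region 45840 bp from Tnfaip3, which encodes the NF-κB inhibitor A20, held SMC1A folds of 34.8 and 32.2 in KO cells and 12.8 and 16.2 in WT cells. Its difference was 1.25 ± 0.24 (SE), with a limma adjusted p of 0.0907 and of 0.00198 with the block. It passed limma's test when ranked by −log10 q (0.0224) and on log2 fold (0.0436). It missed the threshold without requiring CTCF (0.0775), with peaks of a −log10 q of 5 or more (0.1265) and without regions of 450 bp or less (0.1226). Without 1 replicate its difference was 1.04 to 1.47. The region 71615 bp from Kif2a, a kinesin gene, held folds of 23.6 and 16.9 in KO cells and 8.17 and 8.01 in WT cells, with limma adjusted p values of 0.156 and 0.0205 with the block.

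Of the 4 regions with the largest negative statistics, 3 are described here. They were nearest to Csmd1 and Csmd3, which encode large membrane proteins, and to Esp38, an exocrine secreted peptide gene, and none passed in the fit of the scores without the block. The Csmd1 region (368 bp wide, 372426 bp from the gene) held SMC1A folds of 7.21 and 9.00 in KO cells and 20.1 and 17.5 in WT cells, without overlap. Its difference was -1.71 ± 0.39 (SE), with a limma adjusted p of 0.190 and of 0.0189 with the block. It passed limma's test when ranked by −log10 q (0.00993) and on log2 fold (0.0399). It missed the threshold without requiring CTCF (0.1765) and with peaks of a −log10 q of 5 or more (0.202). Without 1 replicate its difference was -2.2 to -1.22. The Csmd3 region, 391 bp wide, held folds of 10.8 and 10.2 in KO cells and 21.5 and 18.6 in WT cells. Its limma adjusted p was 0.200, and 0.0555 with the block. Without 1 replicate its score difference was -1.42 to -1.03. The Csmd1 and Csmd3 regions were both narrow, and the Esp38 region, 6108 bp wide, overlapped Rn18s-rs5, a sequence related to 18S ribosomal RNA. The part of width in these differences was not tested. Besides those near Edn1, Amph, Tnfaip3 and Kif2a, the 9 regions called higher with the block were nearest to Pdcl3, Gata3, Kdr, Dad1 (the Trav17 region) and Snx4, with limma adjusted p values of 0.190 to 0.258 without it. Kdr encodes a receptor of vascular endothelial growth factor, and its region had SMC1A scores of 0.87 and 1.32 in KO cells and 0.12 and -1.32 in WT cells.

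**Figure D4:**
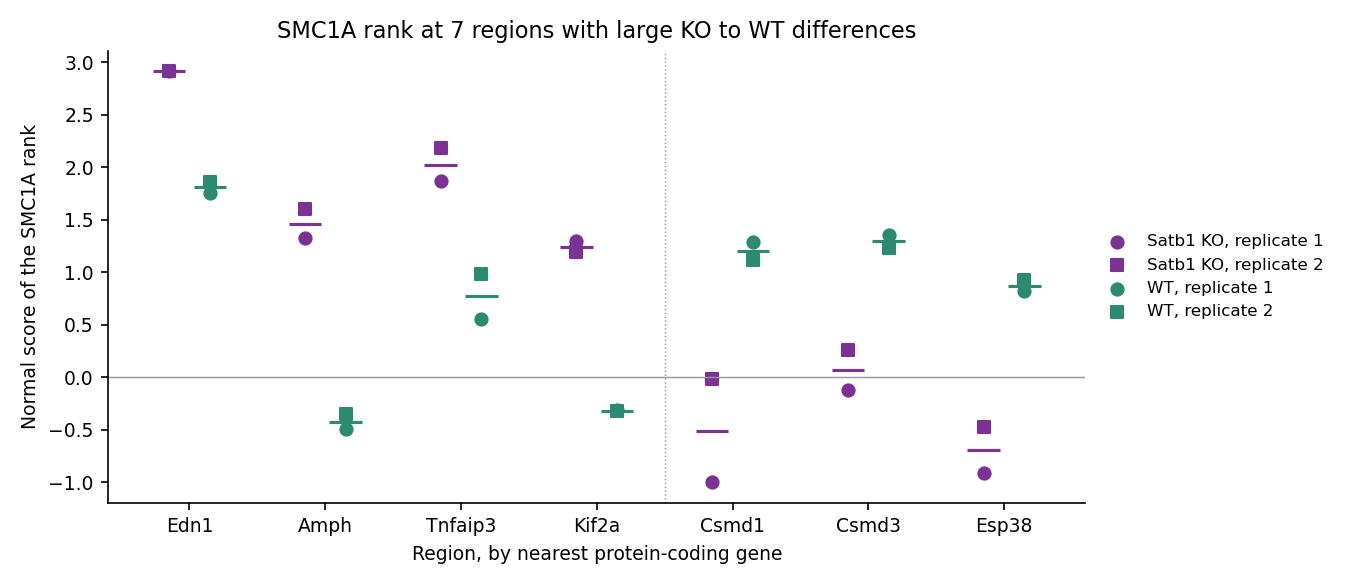
Normal scores of the SMC1A rank (vertical; 0 is the middle of the 9841 shared regions) in the 2 KO lists and the 2 WT lists, for the 4 regions with the largest positive (left of the dotted line) and 3 of those with the largest negative limma statistics; short bars mark group means. KO and WT points do not overlap at any of the 7, which were chosen for large limma statistics, and Edn1 is the one with a limma adjusted p under 0.05.

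The nearest protein-coding genes numbered 721, of which 575 were nearest to a single region and 12 to 4 or more. Ets1, a transcription factor gene of the T lineage, led with 7 regions. Eef2kmt, Ier5, Mc2r and Rasgrp1 had 5 each; Rasgrp1 encodes a Ras activator that acts downstream of the T cell receptor. Gata3, a transcription factor gene needed for T cell development, and Zfp36l2, which encodes an mRNA decay factor, were among those with 4. The densest windows of 1 Mb held 6 regions each, at 86 to 87 Mb of chromosome 12 (Lrrc74a and Irf2bpl), 85 to 86 Mb of chromosome 15 (Atxn10, Fbln1, Ppara and Wnt7b) and 5 to 6 Mb of chromosome 16 (Eef2kmt and Rbfox1).

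**Figure D5:**
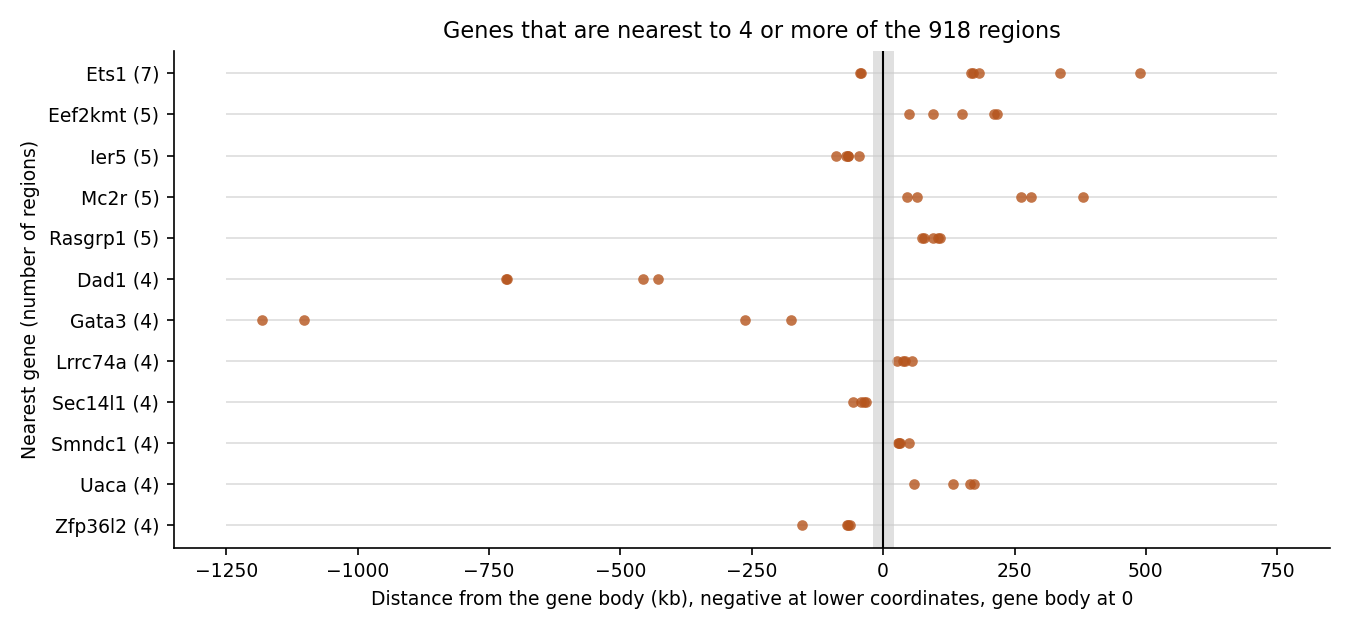
Each point is a region, placed by its distance from the body of its nearest protein-coding gene in kb (negative at lower coordinates; grey, the 20 kb left out on each side), for the 12 genes nearest to 4 or more regions. The regions of Gata3, Ier5, Dad1, Sec14l1 and Zfp36l2 lie at lower coordinates and those of Ets1 lie on both sides.

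Around Ets1 the regions ran between 43088 and 488908 bp from the gene, 2 at lower and 5 at higher coordinates. The pair at lower coordinates was separated by 8 bp and is in effect 1 broad site (chr9:32589326-32593153). The strongest (chr9:32939937-32942280) held SMC1A folds of 36.7 and 29.5 in KO cells and 27.3 and 23.2 in WT cells. Its KO values were the higher ones, with a score difference of 0.38 ± 0.20 (SE) and a limma adjusted p of 0.525. The farthest, 488908 bp away, held folds of 6.12 and 9.39 in KO cells and 6.52 and 7.51 in WT cells, which overlap.

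All 4 regions of Gata3 lay at lower coordinates, 174854, 262443, 1102493 and 1182665 bp from the gene. The one at 262443 bp (chr2:9593466-9594635) had SMC1A scores of 1.50 and 0.92 in KO cells and -0.96 and 0.02 in WT cells, and held CTCF folds of 21.0 and 4.93 in KO cells and 4.52 in WT cells. The groups did not overlap for SMC1A; the difference was 1.68 ± 0.40 (SE), with a limma adjusted p of 0.190 and of 0.0205 with the block. The other 3 had limma adjusted p values of 0.891 or more.

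Genes of the T lineage list, 32 in all, were nearest to 15 regions (1.63%), against 1.72% of the 8428 far regions in fewer lists. Besides Ets1 and Gata3 these were Tcf7 with 2 regions, Runx3 with 1 and Cd69 with 1, the first 2 encoding transcription factors and the last an early activation antigen. At Tcf7 the nearer region (29903 bp) held SMC1A folds of 20.9 and 13.4 in KO cells and 14.4 and 12.7 in WT cells. The region 28626 bp from Cd69 held 16.7 and 10.3 in KO cells and 10.2 and 10.2 in WT cells. None of the 15 passed in the fit of the scores without the block. Adhesion and synaptic genes, 50 in the list, were nearest to 3 regions (0.327%), against 1.08% of the far regions in fewer lists; all 3 (Csmd1, Csmd3 and Pcdh9) were narrow. Developmental transcription factors, 42 in the list, were nearest to 5 regions (0.545%), against 0.653%, among them Bcl11a (2), Sox5 and Sox6. The farther Bcl11a region, 926369 bp away and 436 bp wide, held SMC1A folds of 63.0 and 52.2 in KO cells and 89.5 and 89.3 in WT cells, with a limma adjusted p of 0.503. Of genes of other cells, Irf8, a myeloid transcription factor gene that B cells also use, was nearest to 2 regions. No other gene of the myeloid list was, so that list had 0.218%, against 0.131% of the far regions in fewer lists. Epcam, a surface protein of thymic epithelium, was nearest to 1, and its list had 0.109%, against 0.0356%. No region was nearest to a gene of the B cell or erythroid lists, and none of the 8428 far regions in fewer lists was either. These counts say which genes are close and not which are active.

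At the 20 kb limit the regions just outside lay 20003 bp from Atxn10, 20009 bp from Slc39a6 and 20038 bp from Sema4d, with SMC1A folds of 5.13 and 7.95 in KO cells and 9.78 and 4.30 in WT cells at the first. The shared regions just within it lay 19983 bp from Atp8b4, 19943 bp from Pdp2 and 19925 bp from Neurl1b, with SMC1A folds of 10.3 and 7.54 in KO cells and 9.40 and 8.34 in WT cells at the first.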

How the data were processed

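CUT&RUN peak lists of SMC1A and CTCF from DP thymocytes were used, with each library called by itself. MACS2, Bowtie2, Trimmomatic 1.24, SAMtools, deepTools, R 4.12 and mm10 are listed per the submitters' processing notes; neither settings nor the control for calling were given in the sources used here. The authors' lists give fold enrichment, a ratio, at each summit. The deposited −log10 p and −log10 q of each peak are the authors' too; the −log10 q served for a stricter list and another ranking, as did the deposited summit position, a score in bp, for distances.

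Peaks on chromosomes 1 to 19 were merged at 1 bp of overlap; in a region with several peaks of a list, the strongest counted. Distances are to gene bodies of the RefSeq table (GRCm38.p6). Lists were compared with exact sign-flip or permutation tests, two-sided, and the 9841 shared regions with limma 3.58.1 (R 4.3.3, mean-variance trend, Benjamini-Hochberg) on normal scores of the rank. Python 3.11.15 and scipy 1.17.1 were used, and the code was tested on simulated data. Replicate numbers are the labels' batches, and the replicate block paired the libraries by them. Deviations of batch-matched SMC1A libraries correlated at 0.0276 over 9841 regions, which gives little ground for that pairing.

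Regions were named by fixed rules: the 8 strongest, the 6 farthest, 3 on either side of the limit, 4 in each direction for limma's statistic and for SMC1A against CTCF, the 3 densest windows, and up to 5 per gene list. Receptor segments, regions with a promoter sequence, those nearest to Ets1, Gata3 and Tcf7 beyond that rule, and the 450 bp limit were chosen after values were seen. Results at 2 genes that these rules select are not reported here. The regions and lists were chosen with earlier results of these data known. No genome was used here, so sequence was read only in promoter windows, 250 bases before to 50 after a start.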

Additional observations from a re-analysis of the deposited data

Results flagged for a closer look

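Chromosome X was outside the 918 regions. Of its 1671 merged regions 166 were in every list, and 20 of these (12.0%) lay more than 20 kb from a protein-coding gene, against 9.33% of the shared regions on chromosomes 1 to 19. They are given because the comparisons above do not use chromosome X, and the difference was not tested.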

How the results depend on the processing

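The number of regions was 1433 beyond 10 kb, 393 beyond 50 kb, 578 with peaks of a −log10 q of 5 or more and 249 with all genes of the table; it was 847 with summits joined within 200 bp, 809 with lists cut to equal length, and 928 to 1078 without 1 replicate. The share of far regions in every list, 9.82%, was 10.9% beyond 10 kb, 7.61% beyond 50 kb, 9.22% with the stricter peaks, 8.19% with joined summits, 7.55% with all genes, 15.5% with equal lists, 22.2% without regions of 450 bp or less (an alternative chosen after seeing the data) and 10.2% to 13.8% without 1 replicate; the share near genes was higher in each of the settings where both were computed. The strength difference of -3.06 points had an unadjusted exact permutation p of 0.0469. It missed the threshold when ranked by −log10 q (-2.60), beyond 10 kb (-3.04) and with all genes (-4.14). It also missed in 6 of the 7 cases without 1 replicate (p of 0.0625 to 0.0938). Over the 7 cases the difference ranged between -3.96 and -2.45. The unadjusted exact permutation p was 0.0312 beyond 50 kb (-4.07), with the stricter peaks (-3.04), with joined summits (-3.66) and without the narrow regions (-3.74). Without the second KO CTCF list it was 0.0312 too. The mean width ratio kept its direction and an unadjusted exact p under 0.05 in all alternatives run, with a p of 0.0312 without the narrow regions. In that alternative the mean was -0.115 on the log2 scale. The second KO CTCF list then went the other way, with 556 bp against 534 bp near genes. The summit distance difference was 1.25 bp without the narrow regions. The KO minus WT differences over the regions kept their signs; no paired test adds to the within-batch values of the replicate block, 12.0 and 0.923 points, 91 and 1.5 bp of width, and -5 and -9 bp of summit distance. Of 9841 regions limma called 1; it called 53 with the replicate block, 22 when ranked by −log10 q, 18 on log2 fold, 5 without requiring CTCF, 0 with the stricter peaks, 0 without narrow regions (961 at an unadjusted p under 0.05), and 1 to 37 without 1 replicate. Of the 918 it called 11, 8, 5, 2, 0 and 0 in the same order, and 0 to 6 without 1 replicate. For the 8 regions with the largest limma statistics, 4 in each direction, 76 alternatives gave no reversal, 21 calls gained and 2 lost; the cause was not tested. Peak lists without read numbers limit all of this.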
